A study of Mus musculus with 3 samples.

Results

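The 9 genes described here, Cpa3, Nfe2, Scin, Alox5ap, Plac8, Ctla2a, Emilin2, Adgrg3 and Il17rb, were grouped as mast cell-type genes that mark the DN2 stage of T cell development. They were chosen from earlier results of these same libraries, so that their levels are given as a description and were not tested. All 9 were found by symbol among the 28692 genes listed for the first run, the 28692 of the second and the 32285 of the third. Each of the 3 runs was 1 10x library of C57BL/6 thymocytes, made from 4 thymi of mice labelled as 6 weeks old, which were pooled before sorting and depleted of CD4 and CD8 cells. The first run held total DN (CD4-CD8-) and TCRγδ+ thymocytes. The second was sorted for DN1 and DN2, with TCRγδ+ cells gated out. For the third, DN1 with DN2, DN3 and TCRγδ+ thymocytes were sorted apart and then mixed. B220, CD11b, CD11c, NK1.1 and TCRβ were used in the sorts to remove other cells. As no sort was repeated, a difference between runs and a difference between sorts cannot be told apart. The paper also names more than 1 version of the 10x kit and of Cell Ranger and more than 1 sequencer. It does not say which run used which, so that these may differ between the runs as well.

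DN thymocytes pass from DN1 through DN2 to DN3 as they commit to the T lineage. Kit, the receptor for stem cell factor, is carried by the earliest progenitors and lost on the way to DN3, while Il2ra encodes CD25, which appears at DN2. Rag1 encodes part of the recombinase that rearranges T cell receptor genes, and Ptcra the α chain of the pre-T cell receptor. Mast cells are Kit+ granulocytes that arise from other progenitors, and genes of myeloid and mast cells are known to be transcribed in uncommitted thymocytes before they are silenced.

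Of 23283 cells deposited, 21879 held 500 to 5000 genes and at most 7% mitochondrial counts and were kept. The first, the second and the third run kept 5516, 8852 and 7511, with a median of 5989.5, 4844 and 8507 unique molecular identifiers (UMIs) per cell, respectively. The first and second runs shared 72 cell barcodes, the first and the third 3, and the second and the third 0. Cells were gated by at least 1 UMI of Kit, Il2ra, Rag1 and Ptcra, and 7 of the 10 gates were placed in a series. Cells with Kit alone came first, with 42, 202 and 265 cells in the first, the second and the third run, respectively. They were followed by cells with Kit and Il2ra (72, 448 and 622 cells), the gate nearest to DN2. Cells with Kit, Il2ra and 1 of Rag1 and Ptcra came next (the plus-1 gate, with 34, 131 and 258 cells), and then cells with all 4 genes (the all-4 gate, with 20, 33 and 219 cells). Without Kit, the series went on with Il2ra and 1 of Rag1 and Ptcra (846, 946 and 709 cells). Cells with Il2ra, Rag1 and Ptcra followed (537, 449 and 1182 cells), the gate nearest to DN3 in the first and the third run. The second run was sorted for DN1 and DN2, so that its 449 cells of this gate do not stand for DN3. Cells with Rag1 or Ptcra but neither Kit nor Il2ra came last (1614, 401 and 281 cells). A level is given in CPM, the summed UMIs of a gene per 1000000 UMIs of all genes in the cells of a gate. Intervals in parentheses are exact 95% intervals for counting error only, Poisson for levels, conditional binomial for ratios and Clopper-Pearson for shares. The median cell had 5242, 8576 and 14868 UMIs in the Kit Il2ra gate and 5604, 6106 and 7862 in the Il2ra Rag1 Ptcra gate, so that a gene missed in the gate was missed at different depths.

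Promoter sequences on GRCm38.p6 from RefSeq were found for 7 of the 9 genes and are shown for Cpa3, Ctla2a and Il17rb, which differed in how much was left at the end of the series and in which cells outside it they were found. Each sequence is the 250 bases before the start site, 5′ to 3′ on the strand of the gene. Capitals mark the GATA motif (AGATAA or TGATAA), the RUNX motif (TGTGGT), an E-box (CAGGTG or CAGCTG) and the NF-E2 or AP-1 motif (TGAGTCA) on either strand. The Cpa3 promoter, chr3:20242182-20242431 on the minus strand, held a RUNX motif, an E-box and a GATA motif in that order.
Cpa3: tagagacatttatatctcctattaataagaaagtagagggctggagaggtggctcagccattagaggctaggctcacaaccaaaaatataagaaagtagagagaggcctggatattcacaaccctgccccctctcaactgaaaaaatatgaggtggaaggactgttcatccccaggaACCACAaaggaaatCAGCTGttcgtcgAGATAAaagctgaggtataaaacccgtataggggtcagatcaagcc
The Ctla2a promoter, chr13:60936626-60936875 on the minus strand, held a GATA and an NF-E2 or AP-1 motif.
Ctla2a: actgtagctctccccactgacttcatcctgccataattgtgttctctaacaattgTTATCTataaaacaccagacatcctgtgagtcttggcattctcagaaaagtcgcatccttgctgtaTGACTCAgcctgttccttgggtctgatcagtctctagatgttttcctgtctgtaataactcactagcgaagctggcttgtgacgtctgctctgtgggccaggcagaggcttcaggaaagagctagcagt
The Il17rb promoter, chr14:30008897-30009146 on the minus strand, held 2 E-boxes and an NF-E2 or AP-1 motif.
Il17rb: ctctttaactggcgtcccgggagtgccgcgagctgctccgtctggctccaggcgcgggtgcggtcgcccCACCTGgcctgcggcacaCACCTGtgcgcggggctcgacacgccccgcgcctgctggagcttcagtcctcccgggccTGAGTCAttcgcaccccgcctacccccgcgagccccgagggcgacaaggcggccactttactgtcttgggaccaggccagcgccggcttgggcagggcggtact
Among 32851 promoters of 300 bases, 50 of them after the start, the GATA motif was in 18.6%, the RUNX motif in 16.8%, an E-box in 32.9% and the NF-E2 or AP-1 motif in 5.2%. Of the 10 promoters listed for the 7 genes, 2 held the GATA motif (Cpa3 and Ctla2a), 2 the RUNX motif (Cpa3 and Plac8), 5 an E-box and 3 the NF-E2 or AP-1 motif (Il17rb and both of Ctla2a, which overlap). An ETS motif (GAGGAAGT) was in none of the 10 and in 3.2% of all promoters. These are matches of letters and not known sites.

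The 9 genes had their highest level of the series mostly in the Kit Il2ra gate. This held for 8, 6 and 8 of the 9 in the first, the second and the third run, with no share of all genes counted beside it. The exceptions were Emilin2 in the first run, which was highest with 4 UMIs in the next gate, Nfe2, Alox5ap and Adgrg3 in the second run and Adgrg3 in the third, which were highest in cells with Kit alone. From the Kit Il2ra gate to the Il2ra Rag1 Ptcra gate, 9, 8 and 8 of the 9 genes were at least 2-fold lower on the log2(CPM + 1) scale in the first, the second and the third run, respectively, and none was higher. The 9 of the first run include Emilin2, at 1 against 3 UMIs. Over all genes with at least 10 CPM in either gate, 5.62%, 2.71% and 3.31% were at least 2-fold lower. Il17rb was the gene that stayed within 2-fold in the second and the third run. The median of the 9 log2 ratios was -2.72, -1.96 and -2.46, while that of all genes was -0.06, 0.00034 and 0.02. Emilin2 did not reach 10 CPM in either gate of the first run, and the other members did so in every run.

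**Figure D1:**
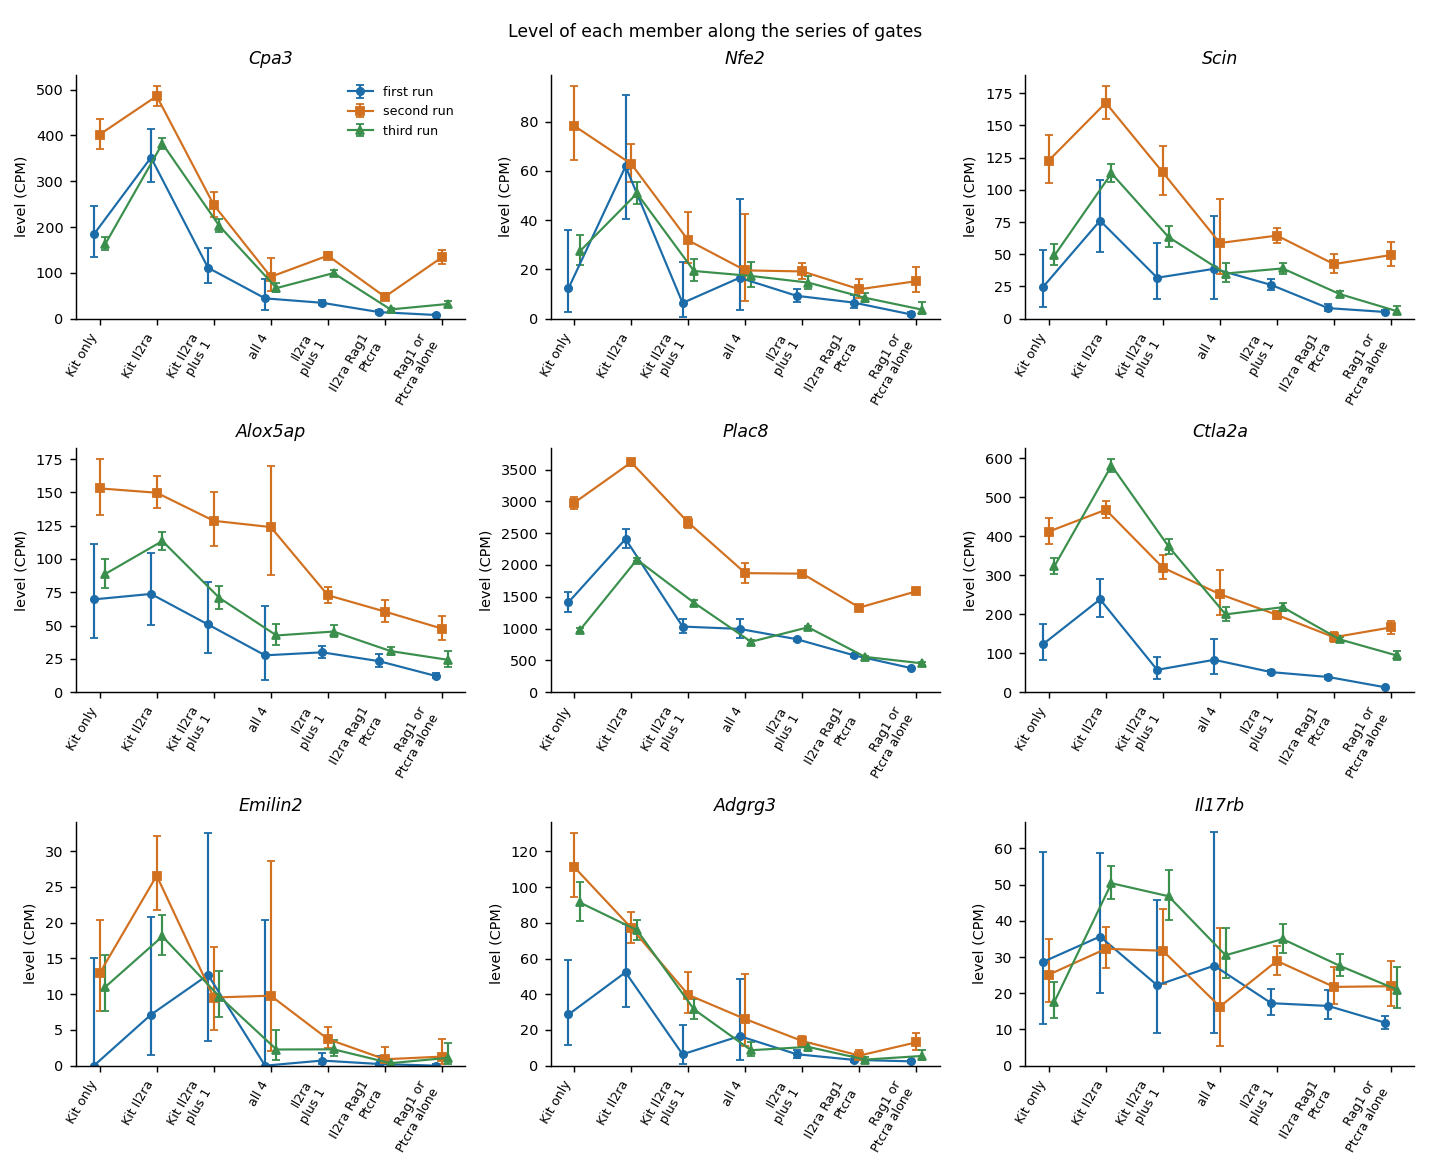
Level of each gene in CPM (y axis, linear from 0) in the 7 gates of the series (x axis), with 1 point per run and bars for the exact Poisson 95% interval. Most genes peaked in the Kit Il2ra gate, Adgrg3 was higher with Kit alone in the second and the third run, and Il17rb differed least along the series.

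Cpa3 (chr3:20215620-20242181, minus strand, GRCm38) encodes carboxypeptidase A3, a protease stored in mast cell granules. In the Kit Il2ra gate of the first, the second and the third run its level was 352 CPM (297 to 413), 486 CPM (465 to 508) and 382 CPM (370 to 395). In the Il2ra Rag1 Ptcra gate it was 14.2 CPM (10.8 to 18.2), 47.7 CPM (40.6 to 55.7) and 20.02 CPM (17.5 to 22.8), respectively. Cpa3 was thus high in the former gate and low in the latter in each library, with no overlap of the intervals. The share left was 4.03% (2.94 to 5.46), 9.81% (8.30 to 11.5) and 5.24% (4.56 to 5.99), or 24.8-fold, 10.2-fold and 19.1-fold lower. When every cell was thinned to 2000 UMIs, a Cpa3 UMI was found in 43.1%, 56.0% and 43.7% of Kit Il2ra cells and in 3.17%, 6.24% and 2.88% of Il2ra Rag1 Ptcra cells. B cell-marker cells of the third run should lack the gene. These were 172 cells without the 4 gate genes that held at least 2 of Cd79a, Cd79b and Ms4a1. They held fewer than 2 markers of each other class of cells that was set by markers. The source of their Cpa3 UMIs was not tested, and these cells were taken as background. They had 6.08 CPM of Cpa3, and a thinned UMI in 2.96% of cells (0.967 to 6.77) at a median of 4418.5 UMIs, so that the 2.88% of the third run cannot be told from background by the share, although its level of 20.02 CPM was higher.

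Adgrg3 (chr8:95017692-95045250, plus strand), an adhesion G protein-coupled receptor known from granulocytes, and Emilin2 (chr17:71252172-71311978, minus strand), a glycoprotein of the extracellular matrix, kept about as small a share as Cpa3. Adgrg3 had 52.3 CPM (32.8 to 79.2), 77.2 CPM (68.9 to 86.3) and 75.9 CPM (70.4 to 81.7) in the Kit Il2ra gate of the first, the second and the third run. In the Il2ra Rag1 Ptcra gate, 3.25 CPM (1.78 to 5.46), 5.66 CPM (3.41 to 8.84) and 3.39 CPM (2.41 to 4.64) remained. The share left was 6.22%, 7.33% and 4.47%, and the intervals of both gates were apart in each run. Its relative Adgrg1 was the only one of 4 listed that passed the limit of 10 CPM, and it was at least 2-fold lower in each run. Emilin2 was sparse, with 3, 107 and 170 UMIs in the Kit Il2ra gate and 1, 3 and 4 UMIs in the Il2ra Rag1 Ptcra gate. Its share left was 3.37% (0.68 to 10.1) in the second run and 1.93% (0.52 to 5.02) in the third. In the first run the ratio of 3.26% had an interval of 0.062 to 40.6% and is too imprecise to place the gene. Of 4 genes of the EMILIN family listed, 1 passed the limit in each run and 0 were lower by 2-fold.

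Nfe2 (chr15:103248212-103258403, minus strand) encodes the p45 subunit of NF-E2, a basic leucine zipper factor of megakaryocytes and red cell precursors that binds DNA with a small Maf protein. It had 61.8 CPM (40.4 to 90.6), 62.8 CPM (55.3 to 71.0) and 50.8 CPM (46.4 to 55.6) in the Kit Il2ra gate, and 6.50 CPM (4.32 to 9.40), 11.9 CPM (8.51 to 16.2) and 8.44 CPM (6.85 to 10.3) in the Il2ra Rag1 Ptcra gate. The share left was 10.5%, 19.0% and 16.6%. The runs were close to each other, and their intervals overlapped in the former gate. Of 7 listed partners and relatives of Nfe2 (Mafg, Mafk, Maff, Nfe2l1, Nfe2l2, Bach1 and Bach2), 6 passed the 10 CPM limit in each run, and 1, 0 and 0 were at least 2-fold lower in the Il2ra Rag1 Ptcra gate. The 1 was Bach2 in the first run. Mafk, a small Maf, was at 33.3, 23.6 and 30.2 CPM in the Kit Il2ra gate and at 29.7, 28.9 and 40.1 CPM in the Il2ra Rag1 Ptcra gate.

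Scin (chr12:40059769-40134228, minus strand) encodes scinderin, a calcium-dependent actin-severing protein of the gelsolin family. Its level was 76.1 CPM (52.0 to 107), 168 CPM (155 to 181) and 113 CPM (106 to 120) in the Kit Il2ra gate of the 3 runs. It was at 8.13 CPM (5.66 to 11.3), 42.3 CPM (35.6 to 49.9) and 19.1 CPM (16.6 to 21.8) in the Il2ra Rag1 Ptcra gate, or 10.7%, 25.3% and 16.9%. The second run was highest in both gates. Among the other 7 gelsolin family genes listed, 3, 4 and 4 passed the limit, and only Gsn was at least 2-fold lower, in the second and the third run.

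Alox5ap (chr5:149264767-149288153, plus strand) encodes the 5-lipoxygenase-activating protein, which presents arachidonic acid to the enzyme that begins leukotriene synthesis. It had 73.7 CPM (50.1 to 105), 150 CPM (138 to 162) and 113 CPM (107 to 120) in the Kit Il2ra gate. Of this, 31.5% (20.9 to 48.8), 40.4% (34.3 to 47.5) and 27.2% (24.0 to 30.7) were left in the Il2ra Rag1 Ptcra gate, more than for any other member but Il17rb in each run. The enzyme itself was hardly detected. Alox5 had 0 UMIs in the Kit Il2ra gate of each run, where the limit set for a count of 0, 3 counts of the total, was 7.13, 0.745 and 0.319 CPM. Ltc4s, the leukotriene C4 synthase, was at 0, 2.23 and 2.76 CPM there, and Lta4h, the leukotriene A4 hydrolase, at 171, 171 and 122 CPM. Of 11 eicosanoid genes listed, 2 passed the limit in each run, and 1, 0 and 0 were at least 2-fold lower in the Il2ra Rag1 Ptcra gate.

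Plac8 (chr5:100553725-100572245, minus strand) encodes a small cysteine-rich protein of leukocytes. It had 2409 CPM (2263 to 2562), 3614 CPM (3556 to 3673) and 2084 CPM (2055 to 2114) in the Kit Il2ra gate and 580.4 CPM (558 to 604), 1330.4 CPM (1292 to 1370.0) and 554 CPM (541 to 568) in the Il2ra Rag1 Ptcra gate. The share left was 24.1%, 36.8% and 26.6%. Plac8 was lowered but did not disappear, since at 2000 UMIs per cell 65.9%, 84.2% and 59.0% of Il2ra Rag1 Ptcra cells still had a UMI of it. In the B cell-marker cells of the third run it was at 694 CPM, so that those cells give no background for this gene.

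Ctla2a (chr13:60934155-60936625, minus strand) encodes a homolog of the propeptide of cysteine proteases that inhibits cathepsin L. It had 238 CPM (193 to 289), 467 CPM (447 to 489) and 581 CPM (565 to 596) in the Kit Il2ra gate and 38.8 CPM (33.1 to 45.1), 141 CPM (128 to 154) and 135 CPM (129 to 142) in the Il2ra Rag1 Ptcra gate. The share left was 16.3%, 30.1% and 23.3%. The first run was low in both gates. Its close copy Ctla2b was at 4.76, 14.4 and 18.0 CPM in the Kit Il2ra gate and at 0.46, 2.09 and 1.39 CPM in the Il2ra Rag1 Ptcra gate. In the last 300 bases of the 9 annotated Ctla2a transcripts, up to 42 of 251 stretches of 50 bases also occur in Ctla2b, and 2 other gene models overlap Ctla2a on the same strand, so that how reads were divided among them is uncertain. Of 10 cysteine protease and inhibitor genes listed, 8, 10 and 9 passed the limit, 2, 3 and 2 were at least 2-fold lower and 1, 0 and 1 higher. Cst7, a cystatin, was lower in each run, and Ctsl, cathepsin L, was the 1 that was higher.

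Il17rb (chr14:29996135-30008896, minus strand) encodes the receptor subunit that binds IL-25, a cytokine sensed together with Il17ra. It kept the largest share of the 9 in each run. It had 35.7 CPM (19.96 to 58.8), 32.3 CPM (27.0 to 38.3) and 50.4 CPM (46.0 to 55.1) in the Kit Il2ra gate and 16.5 CPM (12.9 to 20.8), 21.8 CPM (17.05 to 27.3) and 27.6 CPM (24.6 to 30.8) in the Il2ra Rag1 Ptcra gate. The intervals overlapped in the first and second runs and were apart in the third. The share left was 46.2% (26.2 to 86.9), 67.4% (49.9 to 90.5) and 54.8% (47.3 to 63.3). Il17ra was at 73.7, 63.1 and 87.2 CPM in the Kit Il2ra gate and at 48.5, 61.7 and 84.3 CPM in the Il2ra Rag1 Ptcra gate, within 2-fold in each run. It was the only one of 5 genes listed with the IL-17 receptors that passed the limit, and Il25 had 0 UMIs in both gates. Il17rb overlaps Actr8, Alox5ap overlaps n-R5s180 and Gm19719, and Emilin2 overlaps Gm26561, each on the opposite strand. Whether reads were assigned by strand is not given in the sources used here.

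By the share left in the Il2ra Rag1 Ptcra gate, the 9 genes fell into almost the same order in each run. The 3 lowest values were those of Emilin2, Cpa3 and Adgrg3, whose intervals overlapped one another in each run, so that they were not apart beyond counting error. Emilin2 had 3 UMIs in the Kit Il2ra gate of the first run and 1 in the Il2ra Rag1 Ptcra gate. Nfe2, Scin, Ctla2a, Plac8, Alox5ap and Il17rb then followed in this order in all 3 runs. Some neighbors were not apart beyond counting error. The intervals of Nfe2 and Scin overlapped in each run, and so did those of Plac8 and Alox5ap. The intervals of Scin and Ctla2a overlapped in the first and second runs, and those of Adgrg3 and Nfe2 in the first. Those of Il17rb and Alox5ap were apart in the second and the third run and overlapped in the first.

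**Figure D2:**
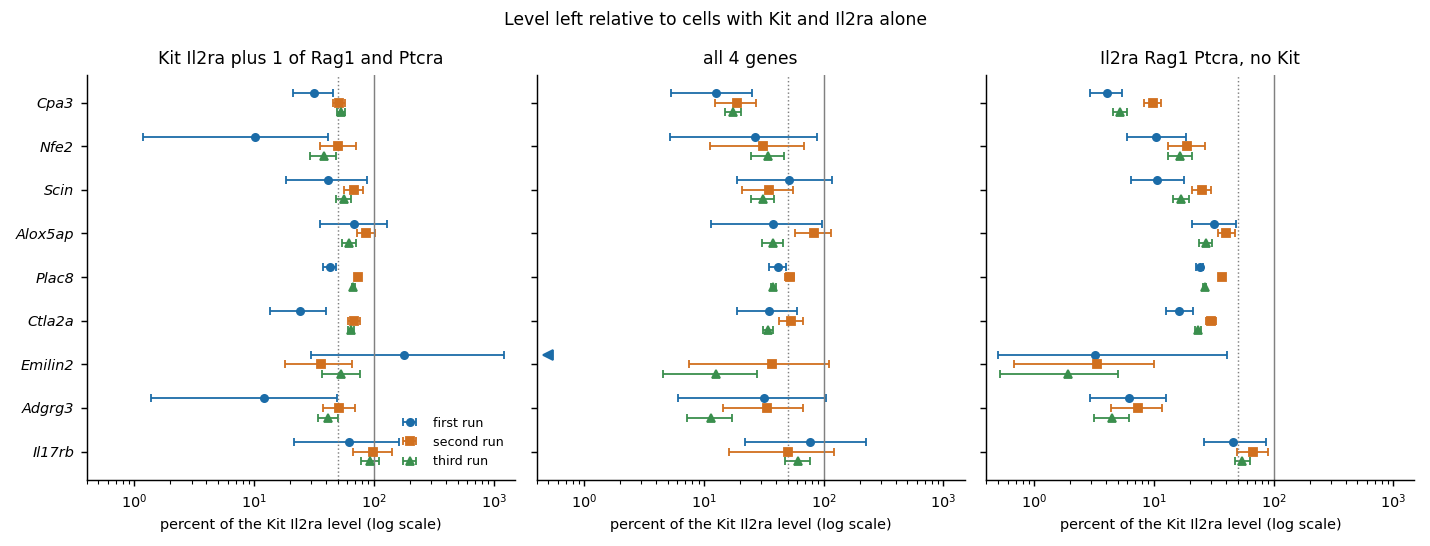
Percent of the Kit Il2ra level of each gene (x axis, log scale) that was left in cells that also had 1 of Rag1 and Ptcra (left), all 4 genes (middle) and Il2ra, Rag1 and Ptcra without Kit (right), with exact 95% intervals. The solid line marks 100%, the dotted line 50%, and an arrowhead a level of 0. In the right panel the shares were 1.93 to 9.81% for Cpa3, Emilin2 and Adgrg3 and 46.2 to 67.4% for Il17rb.

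The order of turning off was followed from gate to gate, although Rag1 and Ptcra did not rise at each step. In the third run Rag1 was at 305 CPM in the all-4 gate, 81.0 CPM in the Il2ra plus-1 gate and 436 CPM in the Il2ra Rag1 Ptcra gate. Ptcra was at 255, 94.3 and 346 CPM in the same gates. The Il2ra plus-1 gate thus need not be later than the all-4 gate. A gene was taken as turned off at the first gate after its highest from which every later gate was below 50% of the highest level. Nfe2 and Adgrg3 passed this point in the plus-1 gate in all 3 runs. In the first run each had 2 UMIs in the 34 cells of that gate, and other members passed the point there too. In the second run both genes were measured from their level with Kit alone. Against the Kit Il2ra gate of that run neither was at least 2-fold lower, with Nfe2 at 31.8 against 62.8 CPM and Adgrg3 at 39.7 against 77.2 CPM. Cpa3 passed the point in the plus-1 gate in the first run and in the gate with all 4 genes in the other runs. Emilin2 did so in the all-4 gate in the first and the third run and 1 gate earlier in the second. Scin and Alox5ap reached it in the all-4 gate or the gate after it. Ctla2a and Plac8 were off at the plus-1 gate in the first run, and later in the others, where Plac8 reached the point only in the Il2ra Rag1 Ptcra gate of the second run. Il17rb was the last, together with Scin in the first run. It reached the point in the Il2ra plus-1 gate in the first run and in the final gate in the third, and did not reach it in the second.

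In cells with Kit, Il2ra and 1 of Rag1 and Ptcra, 6, 1 and 2 of the 9 genes were at least 2-fold lower than in the Kit Il2ra gate, where 10.8%, 0.803% and 0.549% of all genes were. The 1 gene of the second run was Emilin2, and the 2 of the third were Nfe2 and Adgrg3. Cpa3 there had 111, 248 and 202 CPM, which was 31.6% (21.2 to 45.9), 51.1% (45.2 to 57.6) and 52.9% (48.9 to 57.1) of its Kit Il2ra level. In cells with all 4 genes, 7, 5 and 8 of the 9 were at least 2-fold lower, beside 13.7%, 7.28% and 2.18% of all genes. The third run, with 219 such cells, gave the firmest values, at 17.4% (14.9 to 20.3) for Cpa3, 11.4% (7.18 to 17.3) for Adgrg3, 34.1% (24.6 to 46.2) for Nfe2 and 60.5% (47.2 to 76.7) for Il17rb. The 20 and 33 cells of the first and second runs left intervals of over 2-fold for most members. In the first run, Emilin2 is counted among the 7 with 0 against 3 UMIs. Most members were thus lower in all-4 cells, which still held a Kit UMI. Doublets were not removed from these gates. The 8% of cells of each run with the highest doublet score, from simulated doublets, included 23.5%, 23.7% and 14.7% of the plus-1 gate. They included 10%, 27.3% and 16.4% of the all-4 gate and 8.33%, 15.8% and 10.6% of the Kit Il2ra gate. Without these cells the all-4 gate held 18, 24 and 183 cells. Its counts without them were among the alternatives described at the end, where the first run gave no value. The part of doublets in these levels was not tested.

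Cells with and without a Kit UMI were then compared among cells that had UMIs of the other genes. These cells were not alike in the levels of those genes. In the third run, Il2ra Rag1 Ptcra cells without Kit had 436 CPM of Rag1 and 346 CPM of Ptcra, and those with Kit had 305 and 255 CPM. Among cells with Il2ra, Rag1 and Ptcra, 5, 3 and 3 of the 9 genes were at least 2-fold lower without Kit than with it, beside 8.33%, 4.01% and 0.332% of all genes. In the third run these were Cpa3, at 20.02 CPM without Kit and 66.6 CPM with it (30.04%, 24.6 to 36.8), Adgrg3, at 3.39 and 8.66 CPM (39.2%, 22.8 to 68.8), and Emilin2, at 0.35 and 2.26 CPM (15.4%, 3.20 to 64.99). Il17rb was at 90.5% (70.7 to 117). Among cells with Il2ra and 1 of Rag1 and Ptcra, 2, 2 and 3 genes were at least 2-fold lower without Kit, beside 3.5%, 0.701% and 0.262% of all genes. Emilin2 was among them in each run, Cpa3 in the first and the third, and Adgrg3 in the second and the third. The Kit level among Kit cells also differed, at 117 CPM in the Kit Il2ra gate and 96.4 CPM in the all-4 gate of the third run.

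In a second order, cells with an Il2ra UMI were ordered by the summed UMIs of Rag1 and Ptcra among 2000. Cpa3 went from 138 CPM in cells with 0 such UMIs to 9.69 CPM in cells with 3 or more in the first run (7.04%), from 376 to 76.2 CPM in the second (20.2%) and from 243 to 10.2 CPM in the third (4.205%). In the second run the level with 2 UMIs, 21.4 CPM (12.5 to 34.2), was below that with 3 or more (53.7 to 105). Nfe2 (8.80 and 24.7 CPM), Alox5ap (50.3 and 80.3 CPM), Plac8 (1231 and 1368 CPM), Ctla2a and Il17rb were also lower with 2 in that run, with intervals that overlapped. Scin, Emilin2 and Adgrg3 were not. Emilin2 had 0 UMIs in the last bin of each run, after 5.05, 14.2 and 9.34 CPM in the first bin. The exact intervals of the last bin reached up to 7.15, 7.60 and 1.64 CPM and were apart from those of the first bin in the second and the third run but not in the first. Adgrg3 kept 0%, 14.2% and 3.73%. Il17rb kept 53.6%, 84.9% and 62.3%. Nfe2 kept 25.9%, 55.1% and 38.3%, Scin 23.1%, 26.6% and 23.3%, Plac8 47.8%, 44.9% and 27.5%, and Ctla2a 49.2%, 37.6% and 38.5%. Alox5ap kept 102%, 68.1% and 44.3%, and the first run thus showed no lower level at the end for this gene, although 1 and 2 UMIs gave 69.6% and 56.2%.

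**Figure D3:**
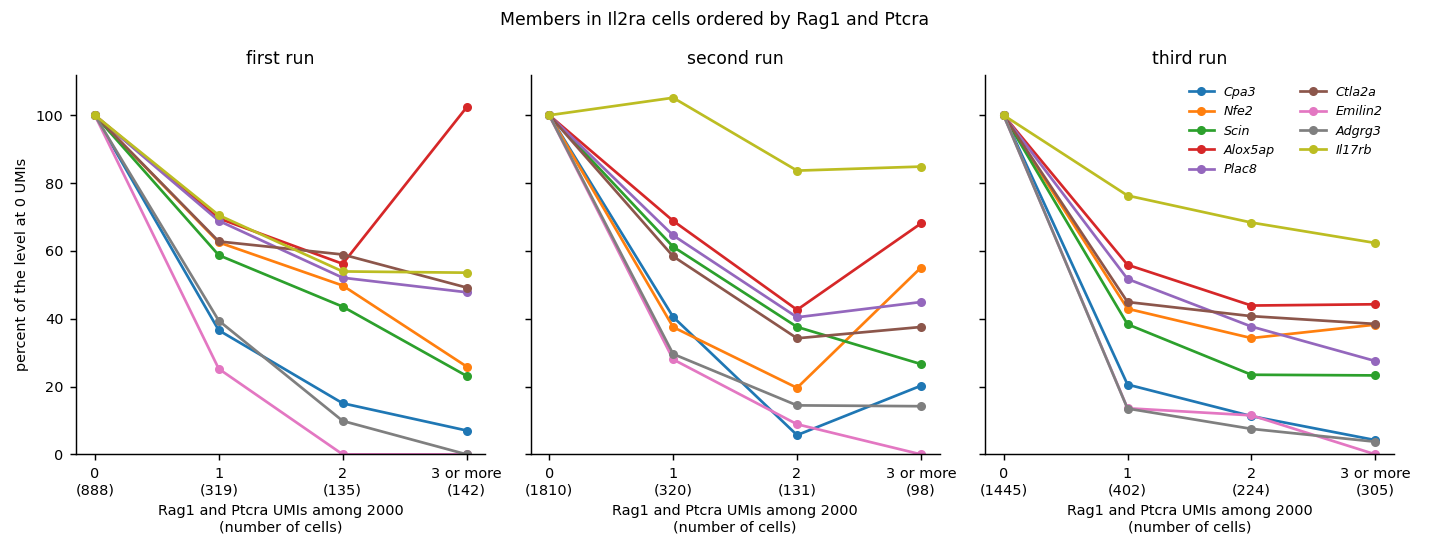
Level of each gene as a percent of its level at 0 UMIs (y axis, linear from 0) in Il2ra cells with 0, 1, 2 and 3 or more UMIs of Rag1 and Ptcra together among 2000 (x axis, with the number of cells). In each run Cpa3, Emilin2 and Adgrg3 were the lowest at 2 UMIs, and Il17rb was the highest in the second and the third run.

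At the other end of the series, cells with Kit alone stood closer to the Kit Il2ra gate and differed between runs. Of the 9 genes, 3, 0 and 4 were at least 2-fold lower with Kit alone, beside 11%, 1.09% and 1.53% of all genes. The first run had only 42 such cells, and Emilin2 is counted there with 0 against 3 UMIs. The 4 genes of the third run were Cpa3, Scin, Plac8 and Il17rb. Cpa3 was at 184 CPM (52.4%, 36.7 to 73.6), 402 CPM (82.7%, 75.2 to 90.9) and 163 CPM (42.7%, 38.8 to 46.9). Adgrg3 was higher with Kit alone in the third run, at 91.4 CPM against 75.9 (120%, 104 to 139), and in the second, at 111 CPM against 77.2 (144%, 118 to 175), but was at 54.8% (19.8 to 133) in the first. Nfe2 was at 19.9% (3.85 to 64.9), 125% (98.6 to 157) and 53.8% (42.1 to 68.2). Il17rb was lowest of the 9 in this comparison in the third run, at 35.1% (25.9 to 46.7). In the same gates the summed level of 4 γδ markers (Trdc, Sox13, Etv5 and Blk) was 1102, 577 and 820.3 CPM with Kit alone and 504, 535 and 361 CPM with Kit and Il2ra. That of 5 natural killer or effector T cell markers (Nkg7, Ccl5, Gzmb, Klrd1 and Ncr1) was 246, 636 and 620.2 CPM with Kit alone and 388, 469 and 369.9 CPM with Kit and Il2ra. The part of such cells in the Kit-only values was not tested. When the gates of the third run were set on cells thinned to 2000 UMIs, 0 of the 9 genes were at least 2-fold lower with Kit alone, and when each cell was weighted equally there were 7.

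In cells with Il2ra and 1 of Rag1 and Ptcra but no Kit, 9, 7 and 8 of the 9 genes were at least 2-fold below the Kit Il2ra gate, beside 4.93%, 1.4% and 1.45% of all genes. Plac8 and Il17rb were the exceptions of the second run, and Il17rb that of the third. In the last gate, cells with Rag1 or Ptcra but no Il2ra, 2, 0 and 2 of the 9 genes were at least 2-fold below the Il2ra Rag1 Ptcra gate, beside 1.79%, 0.449% and 1.43% of all genes, and 0, 2 and 0 were above it, beside 0.0137%, 1.28% and 3.08%. The 2 that were above it in the second run were Cpa3, at 134 CPM against 47.7 (281%, 231 to 342), and Adgrg3, at 13.1 CPM against 5.66 (231%, 127 to 433). Cpa3 was also higher there in the third run (159%, 123 to 205) and lower in the first (55.4%, 40.1 to 77.0). The summed level of the 4 γδ markers was 357, 604 and 375 CPM in this last gate and 352, 456 and 259 CPM in the Il2ra Rag1 Ptcra gate, and its part in the Cpa3 values was not tested.

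Cells with Il2ra alone, numbering 1025, 2311 and 1224, were left out of the series, since they may lack Kit, Rag1 or Ptcra by depth. Cpa3 was at 156, 404 and 239 CPM in them. Of the 9 genes, 3, 1 and 2 were at least 2-fold below the Kit Il2ra gate, beside 2.93%, 0.308% and 0.447% of all genes. In the first and the third run all 9 genes, and in the second run 8 of 9, had a level there between those of the Kit Il2ra gate and the Il2ra plus-1 gate. Il17rb was the exception, at 34.6 CPM in Il2ra-only cells and 32.3 CPM in the Kit Il2ra gate. The share of all genes with such a level in between was not counted.

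Cells often held several of the 9 genes at once. At 2000 UMIs per cell, the median Kit Il2ra cell had UMIs of 2, 3 and 3 of the 9 genes, and 33.3%, 59.4% and 54.7% had 3 or more. In the Il2ra Rag1 Ptcra gate the median was 1 in each run, and 3.17%, 11.1% and 4.41% had 3 or more. No member was found in 9.72%, 0.67% and 2.73% of the former and in 27.2%, 12.03% and 28.3% of the latter. Within the Kit Il2ra gate, cells with a Cpa3 UMI had a UMI of Ctla2a in 35.5%, 63.3% and 69.5%, against 19.5%, 46.7% and 56.0% of cells without one. The Clopper-Pearson intervals of this pair were apart in the second and the third run. Of the 8 other members, 4, 7 and 7 had a higher share in cells with a Cpa3 UMI, with intervals apart for 0, 1 and 2 of them. How many of all genes had a higher share in such cells was not counted. Plac8 was in most cells either way, in 100%, 99.2% and 96.7% of those with Cpa3 and in 80.5%, 98.0% and 89.4% of those without.

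**Figure D4:**
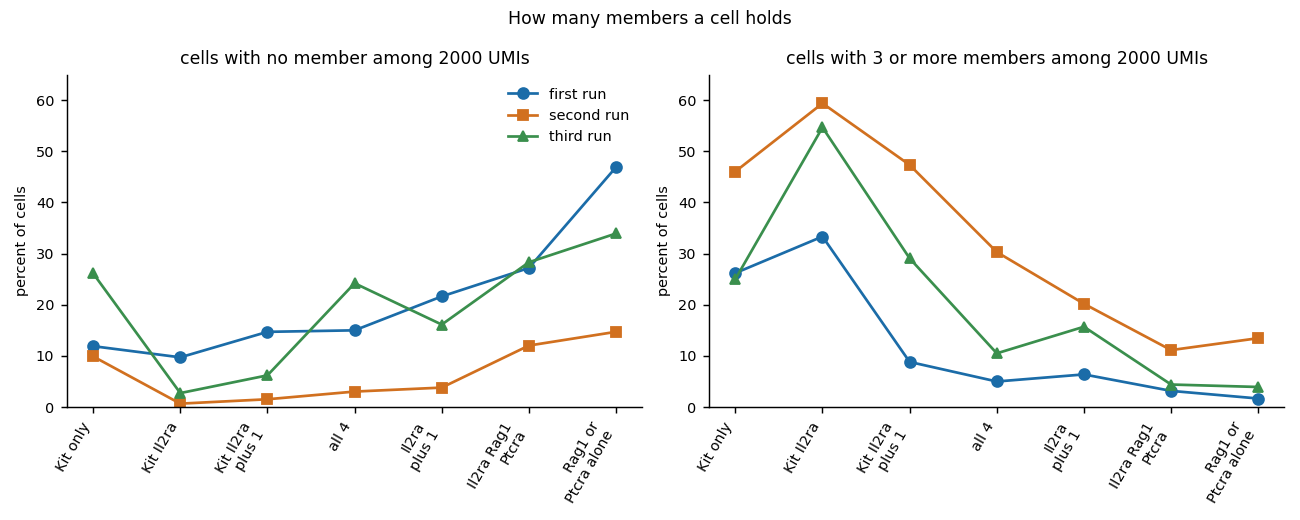
Percent of cells (y axis, linear from 0) with none of the 9 genes (left) and with 3 or more (right) among 2000 UMIs in the 7 gates (x axis), 1 line per run. The share with 3 or more was highest in the Kit Il2ra gate of each run, at 33.3%, 59.4% and 54.7%.

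Cells were also split by cycling, as having at least 2 of 10 listed cell cycle genes. Cells of the Kit Il2ra gate that were not cycling by this measure had 435, 558 and 491 CPM of Cpa3 in the first, the second and the third run, and cycling cells had 304, 443 and 347 CPM. Adgrg3 was at 52.0, 106 and 110.5 CPM in cells that were not cycling and at 52.5, 60.3 and 64.9 CPM in cycling cells. Cycling cells were deeper, with a median of 6828, 10474 and 17221 UMIs against 4165, 6467 and 10774. The lower level in the Il2ra Rag1 Ptcra gate was present within both classes, where Cpa3 was at 12.4, 52.5 and 26.6 CPM in cycling cells and at 18.9, 39.9 and 13.8 CPM in the others.

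The name mast cell-type was checked against genes that define mast cells. Of 9 such markers (Ms4a2, Fcer1a, Tpsb2, Tpsab1, Cma1, Mcpt4, Hdc, Mrgprb2 and Slc6a4), 8 had 0 UMIs in the Kit Il2ra gate of each run, and Hdc, histidine decarboxylase, was at 2.38, 5.46 and 1.38 CPM. The summed level of the 9 ranged from 0 to 7.01 CPM over the Kit-only, Kit Il2ra and plus-1 gates of the 3 runs. Basophil markers (Mcpt8, Prss34 and Cd200r3) summed to 0, 0.99 and 0.32 CPM in the Kit Il2ra gate. Of 22 genes in a wider mast cell and basophil list, 3, 2 and 2 passed the limit of 10 CPM, and 3, 1 and 1 were at least 2-fold lower in the Il2ra Rag1 Ptcra gate. Fcer1g, the γ chain of Fc receptors, was among them in each run, at 35.7, 41.0 and 40.1 CPM in the Kit Il2ra gate and 9.06, 12.5 and 8.88 CPM in the Il2ra Rag1 Ptcra gate.

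Genes of uncommitted progenitors were lower over the same gates. Of 14 progenitor transcription factors listed, 7 passed the limit in each run, and 6, 5 and 5 were at least 2-fold lower in the Il2ra Rag1 Ptcra gate than in the Kit Il2ra gate. Bcl11a, Hhex, Lyl1, Mef2c and Spi1, which act in stem cells, lymphoid and myeloid progenitors, were lower in each run. Lyl1 went from 35.7, 66.0 and 42.0 CPM to 0.697, 4.17 and 1.39 CPM. In cells with Kit alone, Spi1 was at 12.3, 85.4 and 77.1 CPM, against 21.4, 42.9 and 36.4 CPM with Kit and Il2ra. Of 17 T lineage genes, 0 were lower and 6, 7 and 9 were at least 2-fold higher in the Il2ra Rag1 Ptcra gate, beside 4.01%, 1.36% and 2.65% of all genes. Cd3d, Cd3e, Dtx1, Notch3 and Rag2 were higher in each run.

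Outside of the 9, the genes most like them were sought over 30 points, the 10 gates of the 3 runs, with log2(CPM + 1) centered in each run. Points of a run share a library, and gates differ in depth. Among 5727 genes with at least 20 CPM in a gate of every run, Creg1, a secreted glycoprotein, had the highest Pearson r with the mean of the members, 0.94. Others among the most like were Gpx1 (0.93), 4930519L02Rik (0.92), Pde4d (0.92), Cmtm7 (0.92), Lyl1 (0.91), Fth1 (0.91), Pdgfrb (0.90) and Dapp1 (0.90). Among the members, Scin and Plac8 were most alike (r of 0.93) and Adgrg3 and Il17rb least (0.47). The 3 genes most like each member included Cd48 for Cpa3 (0.90) and Ctla2a (0.92), Rgs18 for Adgrg3 (0.93), Fut8 for Nfe2 (0.92), Cmtm7 for Alox5ap (0.94), Fth1 for Plac8 (0.95), Creg1 for Scin (0.90) and Emilin2 (0.87), and Gm15518 for Il17rb (0.92).

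Some of the 9 genes were also high in cells outside of the series. Cells with none of the 4 gate genes, 1295, 3900 and 2708 in number, were split by the markers they held, by a rule chosen after the data were seen. Where a class was set by at least 2 markers, cells that met this for several classes were left out. These were 70, 303 and 710 cells in the first, the second and the third run. Cells with Trdc and Sox13 were taken without this rule. Cpa3 was found in cells with Trdc and Sox13, which encode the TCRδ constant region and a factor of γδ T cells. In 139, 293 and 626 such cells its level was 173, 429 and 233 CPM, which is 49.2% (38.9 to 62.2), 88.2% (79.8 to 97.3) and 60.9% (57.0 to 65.04) of its Kit Il2ra level. In the first run Il17rb was at 52.8% (24.5 to 115) in the same cells, Alox5ap at 38.3% (21.5 to 67.5), Plac8 at 36.7% (33.3 to 40.3) and Scin at 26.3% (13.7 to 48.8), and the other members were at 5.71 to 16.5%. In the second run Il17rb was at 65.4% (40.8 to 101), Plac8 at 34.2% (32.4 to 36.1) and Alox5ap at 28.7% (21.2 to 38.3), and the other members were at 15.9 to 22.9%. In the third run Nfe2 was at 4.56% (2.34 to 8.04) of its Kit Il2ra level, Scin at 5.82% (4.01 to 8.19), Ctla2a at 6.59% (5.69 to 7.59) and Emilin2 at 1.07% (0.0269 to 6.04), while Plac8 was at 24.4% (23.4 to 25.4) and Il17rb at 39.9% (31.9 to 49.4). In cells with Trdc but no Sox13 UMI, Cpa3 was at 63.4, 349 and 82.4 CPM. Of the 9 genes, 6, 1 and 3 were higher with Sox13 than without it in the first, the second and the third run, Cpa3 among them each time. The share of all genes that were higher with Sox13 was not counted. In the third run Ctla2a was among those lower with Sox13, at 38.3 CPM with it and 172 CPM without it. The median depths were alike there, 6725.5 and 7026.5 UMIs. The second run was sorted without TCRγδ+ cells but held 293 cells with UMIs of both genes. In the second run Cpa3 was also at 354 CPM (307 to 405) in 103 cells with at least 2 of Siglech, Bst2, Ccr9 and Irf8, listed as plasmacytoid dendritic cell markers. The paper also used Bst2 protein to divide DN1 thymocytes and found Ccr9 high in γδ thymocytes, so that these cells need not be plasmacytoid. The class held 165 cells in the first run and 89 in the third, for which Cpa3 is not given here. In the second run Cpa3 was at 268 CPM (254 to 282) in 1078 cells that held fewer than 2 markers of every class.

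Ctla2a was retained in cells with at least 2 of Nkg7, Ccl5, Gzmb, Klrd1 and Ncr1, the markers of natural killer and effector T cells. Without the cells of several classes, there were 1726 such cells in the second run and 821 in the third. Ctla2a was at 346 and 451 CPM in them, or 74.1% (69.4 to 79.0) and 77.7% (73.9 to 81.6) of its Kit Il2ra level. Cpa3 was at 11.1% and 1.45% in the same cells. The first run held 5 such cells, and no value is given for it.

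Il17rb was also found in another class, cells with at least 2 of Il1rl1, Areg, Il13, Rora and Icos, markers of type 2 innate lymphoid cells. In 201 cells of the second run and 240 of the third it was at 47.3 and 59.2 CPM, or 146% (100 to 210.2) and 117% (96.9 to 142) of its Kit Il2ra level. Cpa3 was at 8.27 and 2.84 CPM and Alox5ap at 0 and 3.24 CPM in these cells, far below their levels in the gates of the series. Plac8 was found in the B cell-marker cells of the third run at 33.3% (30.8 to 35.9) of its Kit Il2ra level, where Nfe2 and Emilin2 had 0 UMIs (3 counts would be 3.04 CPM).

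**Figure D5:**
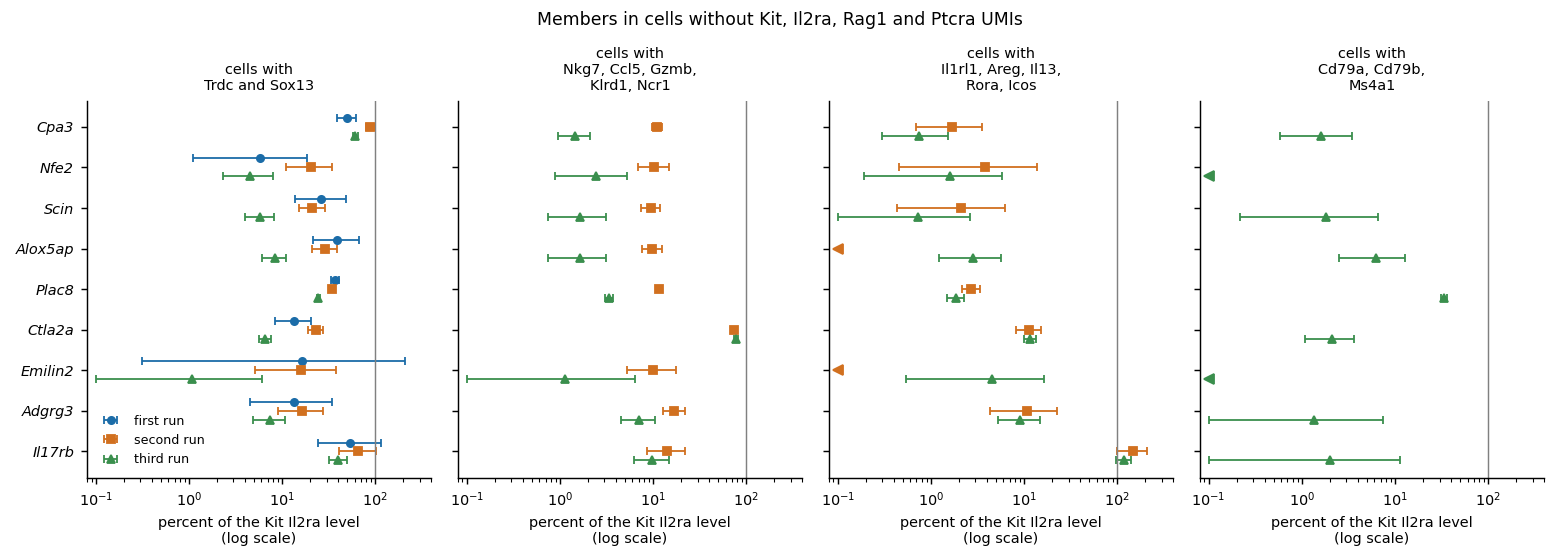
Percent of the Kit Il2ra level of each gene (x axis, log scale) in cells without UMIs of the 4 gate genes that held Trdc and Sox13, or at least 2 of the markers named above each panel, with exact 95% intervals. Outside the left panel, cells with at least 2 markers of several classes were left out. The line marks 100% and an arrowhead a level of 0. Cpa3 stood highest among the 9 genes in the cells with Trdc and Sox13 of the second and the third run, Ctla2a in the second panel, Il17rb in the third and Plac8 in the last.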

How the data were processed

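Thymocytes were profiled by 10x single-cell RNA sequencing, with 1 library per run and 3 runs. The deposited UMI counts per gene and cell barcode were made by the authors with Cell Ranger on mm10 (version 4.0.0 for the third run, per the file headers), and the submitters' notes also name R 3.6.3 and Seurat 2.3. The deposited counts are not normalized. Kept were cells that had 500 to 5000 genes and no more than 7% of UMIs from mitochondrial genes, and gates of at least 1 UMI were set on all UMIs of a cell, without clustering. UMIs were summed per gate and run and given as CPM. Ratios used a pseudocount of 1 CPM for log2 values and for calls of 2-fold, and none for percentages, and the share of all genes called was taken over genes at 10 CPM or more in either gate. As each sort was 1 library, no test was made and no gene has a p-value. Intervals are 95% and cover counting error only. For shares of cells, each cell was thinned to 2000 UMIs. Doublets were not removed. A doublet score from simulated doublets was used only as an alternative. Other alternatives were the UMIs that set a gate, thinned gates, other scalings, filters and pseudocounts, and leaving out cells whose barcode occurs in another library, which was chosen after seeing the data. The members and lists were chosen with earlier results of these data known. Named were all members, list genes at 50 CPM or more in a gate of every run, genes among the 10 most like the members and the 3 most like each. Some genes that these rules name are not reported here. List genes below 50 CPM and the classes of cells without gate genes were chosen after their values were seen. Python 3.11.15, numpy 2.4.6, scipy 1.17.1, pandas 2.3.3 and matplotlib 3.10.9 were used. The 2-fold calls and the intervals of ratios were tested on simulated gate sums with known changes, and the gating of cells was not. The simulated sums were Poisson counts, so that spread between cells beyond counting error was not covered. Promoters are from RefSeq, GRCm38.p6. Gene positions, overlapping genes and the Ctla2a and Ctla2b transcripts are from GENCODE, GRCm38.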

Additional observations from a re-analysis of the deposited data

Results flagged for a closer look

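In cells with Kit alone, Nfe2 was at 19.9% of its Kit Il2ra level in the first run, at 53.8% in the third and at 125% in the second, so that it was at least 2-fold lower in 1 run and above it in another. The first value rests on 3 UMIs in 42 cells, and the difference between runs was not tested.

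The 552 cells of the third run with over 5000 genes, which the limit on genes left out, also held all 9 genes. In these cells, with a median of 32188.5 UMIs, the levels were 109 CPM for Cpa3, 16.3 CPM for Nfe2, 40.6 CPM for Scin and 43.3 CPM for Alox5ap. Plac8 was at 829 CPM, Ctla2a at 195 CPM, Emilin2 at 8.04 CPM, Adgrg3 at 31.6 CPM and Il17rb at 25.0 CPM. Each was below its level in the Kit Il2ra gate of that run.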

How the results depend on the processing

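Of 118 alternative values for the comparisons, 99 stayed close to the value reported and 19 moved. Among the ratios of single genes, 443 stayed close, 97 moved and 0 reversed. A reversal was looked for only in those that were at least 2-fold in the reported setting. A change of direction in a ratio within 2-fold was thus not counted as one. In the Il2ra Rag1 Ptcra gate, 198 of 198 member values stayed below the Kit Il2ra gate and 181 were at least 2-fold lower. Counting every gene with at least 1 UMI moved the share of all genes at least 2-fold lower to 8.65% in the Il2ra Rag1 Ptcra gate of the first run, to 24.7%, 13.9% and 3.42% in the gate with all 4 genes and to 21% and 2.6% with Kit alone in the first and second runs. A pseudocount of 5 CPM moved it to 3.16%, 1.79% and 2.14% in the Il2ra Rag1 Ptcra gate, to 4.64% in the all-4 gate of the second run and to 0.414% and 0.879% with Kit alone in the second and the third run. With Kit alone, the members at least 2-fold lower were 0 with thinned gates and 7 with the mean of per-cell CPM in the third run, and 1 with the latter in the second. The cause was not tested. Ordered by Kit UMIs, 22 of the 28 member pairs of the first run that had a value kept the order of the share left. On all UMIs, 65.3%, 87.1% and 85.9% of Kit Il2ra cells had Cpa3. Without the cells that shared a barcode with another library, the counts of members in these 3 comparisons were 9, 8 and 8, 7, 5 and 8, and 3, 0 and 4, as before. Gates at 2 or more UMIs or on thinned cells left under 20 cells in the all-4 gate and in the Kit Il2ra gate of the first run, as did 5% mitochondrial counts or removal of doublets in the all-4 gate of the first run, and gave no value. No paired analysis was possible because each run was 1 library of another sort and no result comes from a test. Depth limits Emilin2 most, and every value of the first run, with 72 Kit Il2ra cells.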
